A study of Rattus norvegicus with 15 samples.

Results

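Connexin, pannexin and calcium homeostasis modulator (CALHM) genes code for proteins that assemble into large-pore membrane channels, and 5 of them, Gja1, Gjb2, Gjc1, Panx1 and Calhm2, are described here in irradiated primary cultures of rat brain microvascular endothelial cells (BMECs). They are 5 of 37367 genes for which transcript values were summed, and 5 of 28 genes of the 3 families in the table. The 5 genes were chosen by family name and with their levels and differences in these same 15 libraries known, so their values are given as a description and no p-value is attached to them. For each gene, all transcripts that carry its name were added to the unnamed transcripts assembled at a locus with that name alone, which took 20 transcripts in all.

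Connexins form hexamers, the connexons, and a pair of connexons from adjoining cells docks into a gap junction channel that passes ions and small metabolites between the cells. Pannexins and CALHM proteins do not generally dock in this way and act as channels of single membranes, through which ATP and other small molecules leave the cell. In cerebral vessels, gap junctions couple endothelial cells to each other, and released ATP and its breakdown product adenosine act on purine receptors of the vessel wall.

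The cells came from cerebral microvessels of Spraque-Dawley rats, as the labels spell the strain, which were littermates of both sexes and 2 to 3 weeks old, and no genetic change was made. Cultures at 60% confluence were exposed to x-rays at 5 Gy or at 20 Gy, and RNA was taken 12 h or 24 h afterwards. Unexposed controls went through every other step and are labelled as cultured for 12 h. Each of the 5 groups held 3 libraries. The labels do not tie a culture to an animal, so p-values measure only the spread between these libraries. No unexposed culture of 24 h was analysed here, and for the 24 h groups exposure cannot be told apart from longer time in culture.

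The expression unit was FPKM, fragments per kilobase of transcript, scaled to the fragments mapped in the library. The libraries held 5.44 to 7.49 gigabases of aligned sequence, as read from the steps between low FPKM values. The label was checked against 15 endothelial marker genes, of which 13 were in the table and 4 (Kdr, Flt1, Egfl7 and Slc2a1) reached a mean of 0.5 FPKM. Tie1 and Emcn were listed at 0 in all 15 libraries, Cldn5 was listed at 0 in 13, and Cdh5 had a mean of 0.076 FPKM, so the cultures are called BMECs here by their label and not by these markers. Of 7 fibroblast markers, 6 reached 0.5 FPKM, and Postn was listed at 0 in 11 libraries. Their summed level was 1798 to 1987 FPKM in the controls, 1273 to 1547 at 12 h and 272 to 326 at 24 h. Over the 15 libraries, Col1a1, Col1a2 and Col3a1 spanned 24.4 to 546, 18.6 to 464 and 23.5 to 634 FPKM. Lum spanned 36.9 to 261 FPKM, Dcn 75.9 to 220 and Pdgfra only 43.8 to 66.8, so the genes of this sum did not vary alike. In such bulk RNA, fewer cells of a type and less RNA per cell cannot be told apart.

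RefSeq start regions, 250 bases before to 50 bases after the annotated start on the assembly GRCr8, were found for 4 of the 5 genes and are shown because Panx1 with Calhm2, and Gja1 with Gjb2, had their highest or their lowest group means at the same time. Gjc1 had no entry. The regions are chr20:36302314-36302613 (plus strand) for Gja1, chr15:35381904-35382203 (minus strand) for Gjb2, chr8:20171151-20171450 (minus strand) for Panx1 and chr1:255969338-255969637 (minus strand) for Calhm2. Each is printed 5′ to 3′ along its gene, and capitals mark the matches described after it.
Gja1: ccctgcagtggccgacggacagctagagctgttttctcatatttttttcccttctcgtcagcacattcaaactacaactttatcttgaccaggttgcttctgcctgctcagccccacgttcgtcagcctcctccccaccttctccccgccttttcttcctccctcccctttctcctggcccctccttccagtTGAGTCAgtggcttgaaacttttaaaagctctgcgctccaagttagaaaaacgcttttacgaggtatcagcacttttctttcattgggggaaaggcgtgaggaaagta
Gjb2: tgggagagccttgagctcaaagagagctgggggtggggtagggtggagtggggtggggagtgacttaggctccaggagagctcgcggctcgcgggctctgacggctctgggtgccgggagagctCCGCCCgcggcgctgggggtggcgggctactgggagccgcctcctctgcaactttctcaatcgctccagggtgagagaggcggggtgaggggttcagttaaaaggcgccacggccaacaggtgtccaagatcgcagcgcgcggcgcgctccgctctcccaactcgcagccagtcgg
Panx1: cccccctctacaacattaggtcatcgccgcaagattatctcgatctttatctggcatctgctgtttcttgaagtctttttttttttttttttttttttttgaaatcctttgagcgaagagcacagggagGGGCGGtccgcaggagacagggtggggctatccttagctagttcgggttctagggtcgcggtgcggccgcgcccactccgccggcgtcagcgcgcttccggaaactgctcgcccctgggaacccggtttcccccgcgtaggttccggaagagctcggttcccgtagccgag
Calhm2: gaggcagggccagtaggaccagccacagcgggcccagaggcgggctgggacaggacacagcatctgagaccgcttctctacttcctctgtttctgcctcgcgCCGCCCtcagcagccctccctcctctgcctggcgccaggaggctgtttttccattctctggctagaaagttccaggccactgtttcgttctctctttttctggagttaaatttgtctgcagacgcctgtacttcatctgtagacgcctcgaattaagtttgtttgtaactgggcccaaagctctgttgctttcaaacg
A total of 6 short motifs were searched on both strands.
The Gja1 region held an AP-1 element (TGANTCA), the site of FOS and JUN proteins, whose first base lay 58 bases before the start, and 7.33% of all 33469 regions of this length held one. The Gjb2, Panx1 and Calhm2 regions each held 1 GC box (GGGCGG, read as CCGCCC on the other strand for Gjb2 and Calhm2), as did 33.1% of all regions. In Gjb2 it began 126 bases before the start, in Panx1 121 bases and in Calhm2 148 bases. A cAMP response element (TGACGTCA), a TATA box (TATAAA), an E-box (CACGTG) and the p53 half-site had no match in the 4 windows. They were present in 1.83%, 14.2%, 6.42% and 7.98% of all regions, in that order, and no 2 matches in the printed windows overlapped. The share of G and C was 50.3% for Gja1, 68.0% for Gjb2, 56.3% for Panx1 and 55.3% for Calhm2, beside a median of 51.7% over all regions. A match gives letters in these windows and was not tied to the binding of a factor.

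Across the 3 families, 11 of the 28 genes had a mean of at least 0.5 FPKM over the 15 libraries. These were 7 of 19 connexins, 1 of 3 pannexins and 3 of 6 CALHM genes. All 5 genes described here passed this limit, and none of them was below 0.5 FPKM in any single library, the lowest value being 0.642 FPKM for Gjb2. The lowest mean among the 5 genes was that of Gjc1, and the gene closest below the limit was Panx2 with 0.366 FPKM. Of the 17 genes below the limit, 9 were listed at 0 in all 15 libraries, and the highest single value among the 17 was 0.648 FPKM. Gja5, which codes for an arterial endothelial connexin, was among those at 0.

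Gja1, which codes for the widely expressed connexin of many cell types, was by far the highest of the families. Its FPKM made up 95.9% to 98.0% of the summed connexin FPKM in every library (median 97.2%), and with a mean of 538 FPKM it stood at rank 92 of the 17895 genes with at least 0.5 FPKM. FPKM is per transcript length, so these levels can be set side by side. Calhm2 had a mean of 44.4 FPKM, Panx1 8.10 FPKM, Gjb2 5.38 FPKM and Gjc1 4.97 FPKM. Gjb2 took 0.178% to 2.22% and Gjc1 0.221% to 1.94% of the connexin sum.

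**Figure D1:**
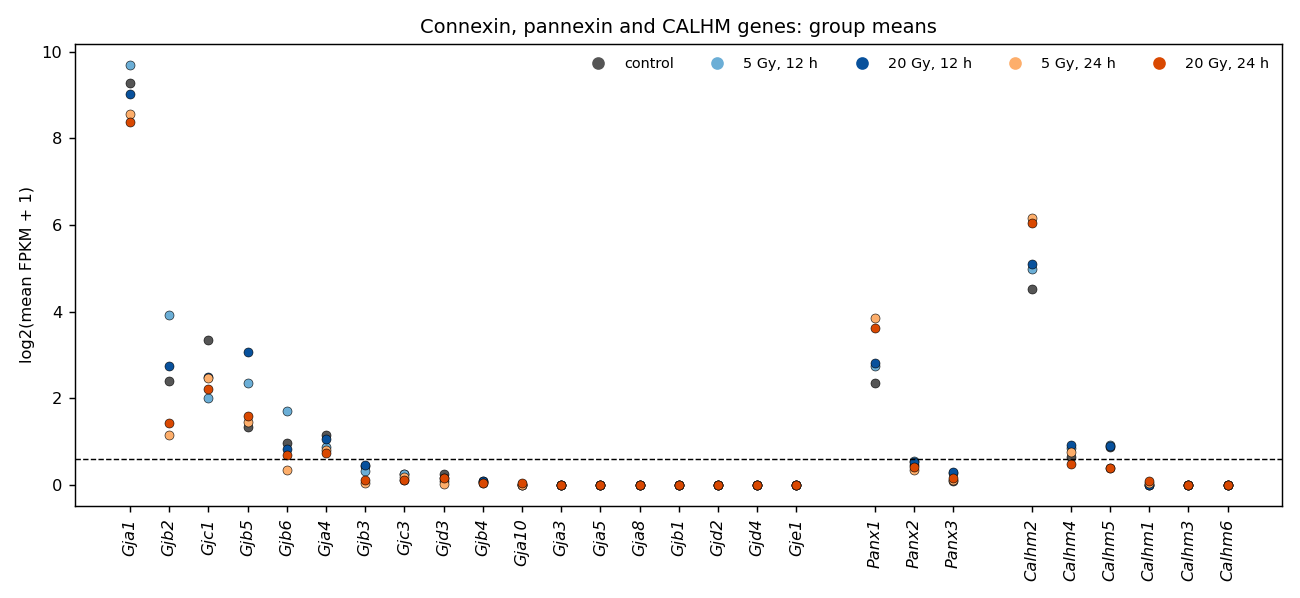
Group means of 27 of the 28 connexin, pannexin and CALHM genes in the table, as log2(mean FPKM + 1) on the vertical axis, with genes ordered by mean level within each family, 1 point per group and a dashed line at 0.5 FPKM. Gja1 lies above every other gene, and 17 genes have a mean over the 15 libraries below the line.

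Gja1 lies on the plus strand of chromosome 20 of Rnor_6.0, the build of the table, at chr20:37876650-37889089. Its level was 749, 614 and 504 FPKM in the control libraries, with a mean of 623 ± 123 FPKM (SD, n = 3). At 12 h it was 605, 739 and 1146 FPKM after 5 Gy (829.9 ± 282) and 446, 475 and 646 FPKM after 20 Gy (523 ± 108). Both 12 h groups overlapped the controls. At 24 h it was 415, 374 and 350 FPKM after 5 Gy (379.8 ± 32.8) and 378, 332 and 290.3 FPKM after 20 Gy (333 ± 44.1), and all 6 libraries lay below every control library and every 12 h library.

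The fitted log2 difference of Gja1 from the control, on the scale of log2(FPKM + 1), was 0.38 ± 0.22 (SE) at 12 h and -0.70 ± 0.22 at 24 h after 5 Gy. For the 20 Gy groups the corresponding values were -0.25 ± 0.22 and -0.89 ± 0.22. From 12 h to 24 h the difference was -1.08 ± 0.22 after 5 Gy and -0.64 ± 0.22 after 20 Gy. In FPKM, the 24 h mean was 0.610 times the control mean after 5 Gy and 0.536 times after 20 Gy. Between the doses, 20 Gy minus 5 Gy was -0.63 ± 0.22 at 12 h and -0.19 ± 0.22 at 24 h, and the libraries overlapped at both times. Ordered by mean, 5 Gy at 12 h stood first, followed by the control, 20 Gy at 12 h, 5 Gy at 24 h and 20 Gy at 24 h. Only the step from 20 Gy at 12 h to 5 Gy at 24 h in this order separated neighbours whose libraries did not overlap.

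Gjb2, which codes for a connexin of epithelia, the inner ear and the leptomeninges, is at chr15:37377316-37383277 on the minus strand and had a single transcript. In the control libraries it stood at 6.03, 3.89 and 2.90 FPKM (4.28 ± 1.60, SD, n = 3). It varied widely at 12 h, with 5.57, 10.2 and 26.3 FPKM after 5 Gy (14.02 ± 10.9) and 1.89, 3.70 and 11.5 FPKM after 20 Gy (5.70 ± 5.11). The third library was the highest of both 12 h groups, at 3.32 times the mean of the other 2 libraries after 5 Gy and 4.12 times after 20 Gy. At 24 h the level was 1.93, 1.10 and 0.642 FPKM after 5 Gy (1.23 ± 0.655) and 2.75, 0.991 and 1.29 FPKM after 20 Gy (1.68 ± 0.940). All 24 h libraries lay below the lowest control library.

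The log2 difference of Gjb2 from the control was 1.30 ± 0.55 (SE) at 12 h and -1.24 ± 0.55 at 24 h after 5 Gy, and 0.11 ± 0.55 and -0.99 ± 0.55 after 20 Gy. Without the third 12 h library of each dose, the differences at 12 h were 0.75 ± 0.38 after 5 Gy and -0.47 ± 0.38 after 20 Gy, so the sign after 20 Gy rested on that library. Between the times, the 24 h mean after 5 Gy was 0.0874 times the 12 h mean, a log2 difference of -2.55 ± 0.55 with no overlap of libraries, and -1.99 ± 0.38 without the third 12 h libraries. After 20 Gy the difference between the times was -1.10 ± 0.55, and the libraries overlapped. In the order of means, 5 Gy at 12 h came first, then 20 Gy at 12 h, the control, 20 Gy at 24 h and 5 Gy at 24 h, and only the control and 20 Gy at 24 h were neighbours without overlap.

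The third library of both 12 h groups was also the highest of its group for Gja1, at 1.71 times the mean of the other 2 after 5 Gy and 1.40 times after 20 Gy. It was also the highest for Panx1 (1.09 and 1.24 times) and Calhm2 (1.27 and 1.19 times), and the lowest for Gjc1 (0.82 and 0.79 times). Without these libraries, the Gja1 difference from the control was 0.12 ± 0.17 at 12 h after 5 Gy and -0.42 ± 0.17 after 20 Gy. After 5 Gy, the 12 h differences of Gjc1, Panx1 and Calhm2 without them were -1.26 ± 0.28, 0.36 ± 0.18 and 0.34 ± 0.10. A list of 10 meningeal fibroblast markers, of which 7 reached 0.5 FPKM and Slc6a13 and Aldh1a2 were listed at 0 in all libraries, had a summed level of 333 to 411 FPKM in the controls. The sum was 427 to 480.1 FPKM at 12 h after 5 Gy, 332 to 395 FPKM after 20 Gy, and 178 to 289 FPKM and 209 to 245 FPKM at 24 h after 5 Gy and 20 Gy. Like the fibroblast sum, it was lower at 24 h than in the controls, as Gja1 and Gjb2 were, and its part in their levels was not tested.

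Gjc1, which codes for a connexin of vascular smooth muscle, the cardiac conduction system and other excitable tissue, is annotated at chr10:90781402-90912287 on the minus strand. Its level was highest in the controls, with 10.1, 7.25 and 10.1 FPKM (9.15 ± 1.64, SD, n = 3). It was 3.28, 3.10 and 2.62 FPKM at 12 h after 5 Gy (3.00 ± 0.344) and 4.90, 4.96 and 3.90 FPKM at 12 h after 20 Gy (4.59 ± 0.592). At 24 h it was 3.77, 5.30 and 4.37 FPKM after 5 Gy (4.48 ± 0.773) and 1.78, 4.54 and 4.67 FPKM after 20 Gy (3.66 ± 1.63). All 12 exposed libraries lay below the lowest control library.

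The log2 differences of Gjc1 from the control at 12 h were -1.33 (5 Gy) and -0.85 (20 Gy), and those at 24 h were -0.89 and -1.18, each with an SE of 0.24. In FPKM, the exposed means were 0.328 to 0.501 times the control mean. The first library of the 20 Gy group at 24 h was the lowest of all, and without it that difference was -0.84 ± 0.16. Gjc1 was the only one of the 5 genes whose 12 h groups did not overlap, with the 3 libraries of 20 Gy above those of 5 Gy. The log2 difference of 0.48 ± 0.24 was not called. The share of all genes without such overlap is not given, and nothing particular to Gjc1 is read from it. At 24 h the doses overlapped. After 5 Gy the 24 h libraries lay above the 12 h libraries (0.45 ± 0.24), and after 20 Gy they overlapped (-0.33 ± 0.24). In the order of means the control was followed by 20 Gy at 12 h, 5 Gy at 24 h, 20 Gy at 24 h and 5 Gy at 12 h, and only the control did not overlap its neighbour. Of 9 mural cell markers, 5 reached 0.5 FPKM, and Kcnj8 and Abcc9 were listed at 0 in all libraries. Their sum was 91.2 to 99.5 FPKM in the controls, 76.1 to 93.8 FPKM at 12 h and 40.6 to 67.2 FPKM at 24 h, and its part in the Gjc1 levels was not tested.

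Panx1 codes for the main ATP-releasing pannexin, and is annotated at chr8:13566739-13606040 on the minus strand. Its level in the control libraries was 3.92, 4.90 and 3.52 FPKM (4.11 ± 0.711, SD, n = 3). At 12 h it was 5.66, 5.41 and 6.03 FPKM after 5 Gy (5.70 ± 0.310) and 5.27, 5.86 and 6.89 FPKM after 20 Gy (6.01 ± 0.820). All 12 h libraries lay above the highest control library. At 24 h it was 16.0, 11.3 and 12.95 FPKM after 5 Gy (13.4 ± 2.36) and 10.1, 9.74 and 13.98 FPKM after 20 Gy (11.3 ± 2.37), above every 12 h library of either dose.

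The log2 differences of Panx1 from the control at 12 h were 0.40 (5 Gy) and 0.46 (20 Gy), and those at 24 h were 1.49 and 1.25, each with an SE of 0.16. The 24 h mean was 3.26 times the control mean after 5 Gy and 2.74 times after 20 Gy. Between the times the log2 difference was 1.09 ± 0.16 after 5 Gy and 0.80 ± 0.16 after 20 Gy. The doses overlapped at 12 h (0.06 ± 0.16, 20 Gy minus 5 Gy) and at 24 h (-0.24 ± 0.16). The groups were ordered 5 Gy at 24 h, 20 Gy at 24 h, 20 Gy at 12 h, 5 Gy at 12 h and control, and the 2 groups of each time overlapped.

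Calhm2 codes for a CALHM protein that, among its reported roles, has been linked to ATP release from glia, and it is at chr1:266908369-266914093 on the minus strand. It was the steadiest of the 5 genes in the controls, with 21.6, 21.8 and 22.7 FPKM (22.0 ± 0.607, SD, n = 3). At 12 h it was 26.9, 29.4 and 35.7 FPKM after 5 Gy (30.6 ± 4.50) and 29.2, 32.9 and 37.04 FPKM after 20 Gy (33.1 ± 3.90). At 24 h it reached 76.3, 70.5 and 65.4 FPKM after 5 Gy (70.7 ± 5.45) and 68.5, 57.7 and 69.6 FPKM after 20 Gy (65.3 ± 6.58). The control, 12 h and 24 h libraries formed 3 ranges that did not overlap.

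The log2 differences of Calhm2 from the control at 12 h were 0.45 (5 Gy) and 0.56 (20 Gy), and those at 24 h were 1.64 and 1.52, each with an SE of 0.11. In FPKM, the 24 h means were 3.21 and 2.96 times the control mean. From 12 h to 24 h the log2 difference was 1.19 ± 0.11 after 5 Gy and 0.96 ± 0.11 after 20 Gy. The doses overlapped at both times, with 0.11 ± 0.11 at 12 h and -0.12 ± 0.11 at 24 h (20 Gy minus 5 Gy). The order of its group means was that of Panx1. Of 6 astrocyte markers, 4 reached 0.5 FPKM, while Gfap had a mean of 0.056 FPKM and Aqp4 was listed at 0 in all libraries. Their sum was 13.4 to 15.3 FPKM in the controls, 21.9 to 31.5 FPKM at 12 h and 20.04 to 33.5 FPKM at 24 h, and its part in the Panx1 and Calhm2 levels was not tested. Most of this sum came from Aldh1l1 alone, with a mean of 20.4 FPKM over the 15 libraries. Slc1a2, Slc1a3 and S100b had means of 1.29, 1.71 and 0.649 FPKM, so the sum does not stand for astrocyte markers as a set.

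**Figure D2:**
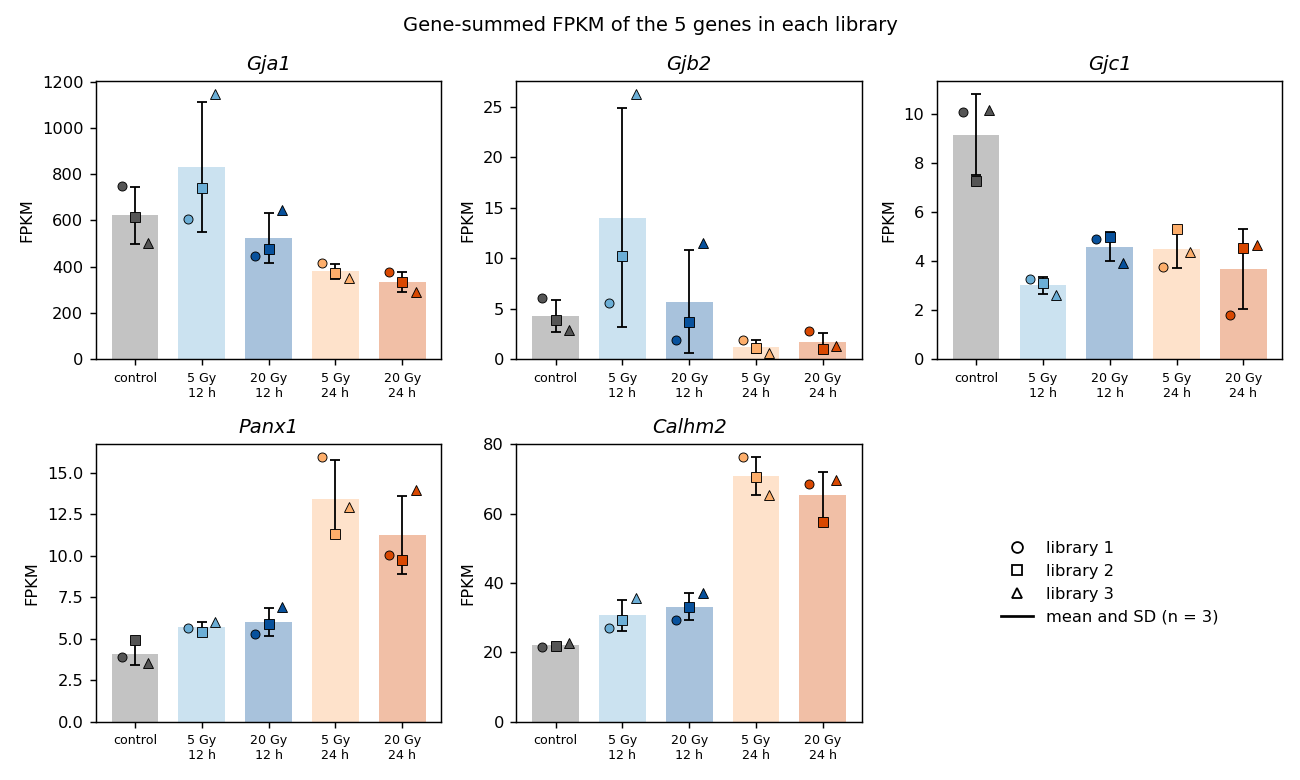
Gene-summed FPKM on the vertical axis of Gja1, Gjb2, Gjc1, Panx1 and Calhm2 in the 5 groups, with 1 marker per library, bars at the mean and error bars of 1 SD (n = 3). Gja1 and Gjb2 are lower in all 24 h libraries than in the controls, Gjc1 is lower in all 12 exposed libraries, and Panx1 and Calhm2 are higher in all 12. The share of all genes separated in this way is not given, and nothing particular to these genes is read from it.

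A gene was called at a Benjamini-Hochberg adjusted p under 0.05 over all 17895 genes tested with limma and a fold change of at least 1.5. Against the control, 0 of the 5 genes were called higher and 1 lower (Gjc1) at 12 h after 5 Gy, where 4.98% of all genes tested were called higher and 4.96% lower. At 12 h after 20 Gy, 0 were called higher and 1 lower (Gjc1), beside 4.90% and 3.64% of all genes. At 24 h, Panx1 and Calhm2 were called higher and Gja1 and Gjc1 lower after both doses. The shares of all genes called higher and lower at 24 h were 20.5% and 20.8% after 5 Gy and 17.0% and 23.3% after 20 Gy. Because the genes were chosen with these differences known, nothing is read from these counts, and the 4 comparisons share the same 3 control libraries. For the same reason, no lack of overlap with the controls is read as particular to these genes. The share of all genes without such overlap is not given.

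Between 12 h and 24 h, Panx1 and Calhm2 were called higher after both doses, where 17.1% of all genes were called higher after 5 Gy and 14.1% after 20 Gy. Gja1 and Gjb2 were called lower after 5 Gy and Gja1 after 20 Gy, beside 19.3% and 22.1% of all genes. Between the doses, 0 of the 5 genes were called at 12 h, where 0.123% of all genes were called in either direction, and 0 at 24 h, where 2.42% were. At an unadjusted p under 0.05, limma gave 1 of the 5 genes at 12 h and 0 at 24 h. No share of all genes at that limit is given, and nothing is read from this count on genes chosen with these differences known. The median log2 difference of the 5 genes from the control at 12 h was 0.40 (5 Gy) and 0.11 (20 Gy), and at 24 h it was -0.70 and -0.89. Over all genes tested it was 0.03 and 0.01 at 12 h, and -0.05 and -0.14 at 24 h.

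**Figure D3:**
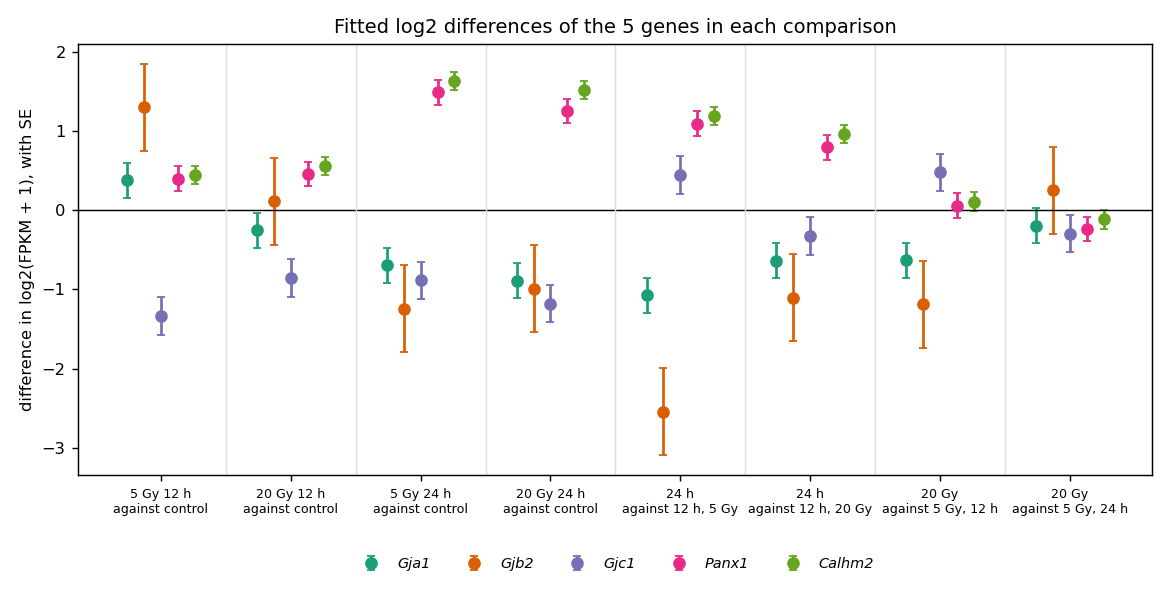
Fitted differences of Gja1, Gjb2, Gjc1, Panx1 and Calhm2 in log2(FPKM + 1) on the vertical axis, with error bars of 1 SE, for the 8 comparisons on the horizontal axis. Panx1 and Calhm2 lie above 1 in both 24 h comparisons with the control, Gjc1 lies below 0 in all 4 comparisons with the control, and Gjb2 has the widest error bars.

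Several of these calls were lost when a single library was left out or the normalization was changed, although the differences kept their sign. The Gjc1 call at 12 h after 20 Gy was lost when any 1 of 5 libraries was left out, namely control library 1, control library 3 or any of the 3 exposed libraries, with the log2 difference between -0.90 and -0.76 in these 5 fits. Without the first exposed library of that group, Calhm2 was called there in place of Gjc1 (0.64 ± 0.12). The Gja1 call at 24 h after 5 Gy was lost without the first control library (-0.55 ± 0.24) or the third exposed library (-0.64 ± 0.26), after quantile normalization (-0.42 ± 0.25) and after rescaling each library to the same sum (-0.55 ± 0.24). The Gja1 call between the times after 20 Gy was lost after quantile normalization (-0.59 ± 0.25), without the third 12 h library (-0.47 ± 0.23), without 24 h library 2 (-0.64 ± 0.26) or without 24 h library 3 (-0.54 ± 0.25). Calhm2 was called higher at 24 h in each of the 27 alternatives, after either dose. At 12 h, where it was not called with all libraries and sums over transcripts, it was called higher in 2 of 27 alternatives after 5 Gy and in 4 of 27 after 20 Gy, among them annotated transcripts alone (0.61 and 0.75). Gjb2, not called against the control at 24 h, was called there in 5 of 27 alternatives after 5 Gy and in 2 of 27 after 20 Gy. For both doses these included the fit of only the 2 groups compared and the fit without the third 12 h libraries.

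The FPKM of Gjc1 and Panx1 was divided unevenly between annotated transcripts and transcripts assembled from the reads. Gjc1 had 2 annotated and 3 assembled transcripts, and the annotated ones carried 0% of its FPKM in 5 libraries and up to 98.8% in others. Panx1 had 2 of each, and the annotated ones carried 12.5% to 100% and less than 50% in 8 of 15 libraries. For Gja1, with 1 annotated and 7 assembled transcripts, the annotated share was 55.9% to 100%. Calhm2 had 1 of each, and its annotated transcript carried 78.9% to 97.3%.

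Sums over all transcripts of a gene were used for this reason, and the choice mattered for Panx1. With annotated transcripts alone, its difference between the times was 0.21 ± 0.48 after 5 Gy and -0.27 ± 0.48 after 20 Gy, neither of them called, and the call against the control at 24 h was kept after 5 Gy and lost after 20 Gy. Both Gja1 calls against the control at 24 h were lost as well, with -0.79 ± 0.33 after 5 Gy and -0.83 ± 0.33 after 20 Gy, against SEs of 0.22 with sums. For Gjc1, annotated transcripts alone gave -1.95 (5 Gy) and -2.45 (20 Gy) in the 12 h groups and -1.48 in the 20 Gy group of 24 h, each with an SE of 0.78, and these 3 calls were lost, although the differences were larger than with sums. Gjb2, with 1 transcript, did not depend on this choice.

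**Figure D4:**
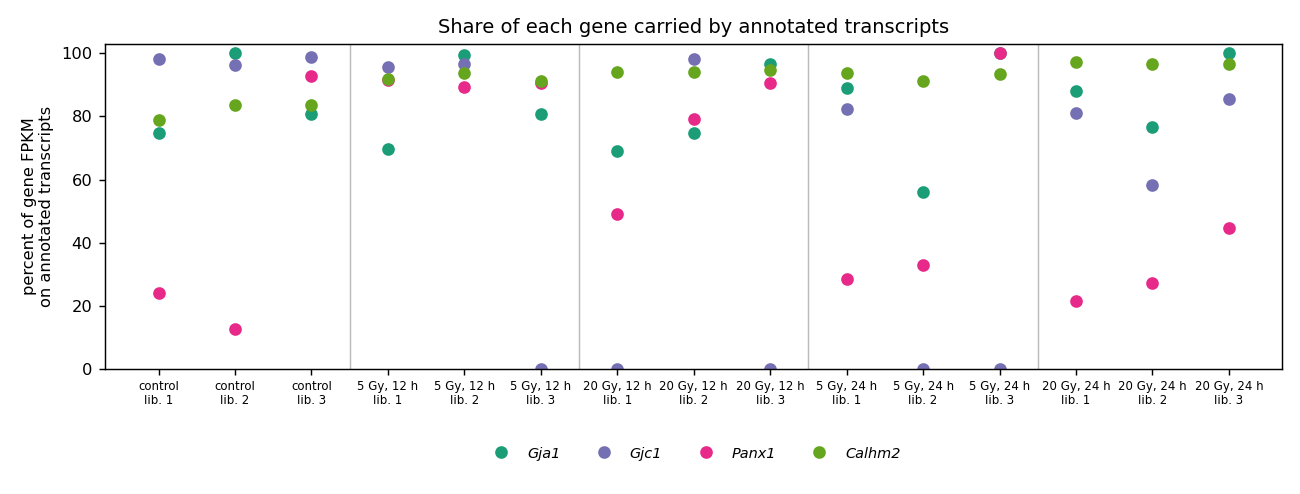
Percent of the FPKM of Gja1, Gjc1, Panx1 and Calhm2 carried by annotated transcripts (vertical axis) in each of the 15 libraries, which are grouped by condition. Gjc1 lies at 0% in 5 libraries, and Panx1 lies below 50% in 8.

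Of the 23 other genes of the 3 families, 6 were tested, and the same call rule gave them adjusted p-values over all genes. Gjb5, a connexin of skin and placenta, rose at 12 h. It was 1.55, 1.55 and 1.44 FPKM in the controls, 4.40, 4.54 and 3.22 FPKM after 5 Gy and 6.17, 9.27 and 6.53 FPKM after 20 Gy. The log2 rise was 1.00 ± 0.19 (SE, limma adjusted p = 0.00286) after 5 Gy and 1.71 ± 0.19 (limma adjusted p = 7.54e-05) after 20 Gy, with all exposed libraries above the controls.

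Gjb5 then fell between 12 h and 24 h after both doses, to 1.61, 1.48 and 2.13 FPKM after 5 Gy and 1.23, 2.17 and 2.60 FPKM after 20 Gy. The log2 change was -0.88 ± 0.19 (limma adjusted p = 0.00157) after 5 Gy and -1.48 ± 0.19 (limma adjusted p = 2.81e-05) after 20 Gy. At 24 h it overlapped the controls, with adjusted p of 0.61 and 0.321 in limma. The 12 h libraries of 20 Gy lay above those of 5 Gy by 0.71 ± 0.19 on the log2 scale, which did not pass the test over all genes (limma adjusted p = 0.235). An unnamed transcript added to the Gjb5 sum mattered after 5 Gy, where the annotated transcript alone gave 0.90 ± 0.29 (limma adjusted p = 0.0747).

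Gjb6, whose gene lies 17.6 kb from Gjb2 and which codes for a connexin of astrocytes and the inner ear, was also highest in the third library of each 12 h group. It was 0.834, 0.967 and 4.93 FPKM at 12 h and 0.596, 0 and 0.186 FPKM at 24 h after 5 Gy, and the change between the times was -1.17 ± 0.42 (limma adjusted p = 0.0311). This call was lost in 8 of 27 alternatives, among them without the third 12 h library (-0.62 ± 0.33, limma adjusted p = 0.135) and without 24 h library 2 (-1.01 ± 0.48, limma adjusted p = 0.0984) or 24 h library 3 (-1.14 ± 0.49, limma adjusted p = 0.0716). After 20 Gy the log2 difference between the times was -0.09 ± 0.42 (limma adjusted p = 0.871).

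Calhm5 was 0.691, 0.917 and 0.895 FPKM in the controls and 0.245 to 0.382 FPKM in the 6 libraries at 24 h. The log2 difference at 24 h was -0.49 ± 0.11 after both doses, with limma adjusted p of 0.00165 after 5 Gy and 0.00163 after 20 Gy. It was under 1.5-fold on the log2(FPKM + 1) scale, which understates changes at such levels, and was therefore not called. With a pseudocount of 0.1 it was called at -1.20 ± 0.25 and -1.22 ± 0.25. Calhm2 was higher and Calhm5 lower at 24 h than in the controls, and they lie on chromosomes 1 and 20.

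Gja4, which codes for a connexin of arterial endothelium, had 0.411 to 1.40 FPKM over all libraries, and its log2 difference at 24 h was -0.36 ± 0.18 after 5 Gy (limma adjusted p = 0.107) and -0.43 ± 0.18 after 20 Gy (limma adjusted p = 0.0573). Calhm4, with 0.242 to 1.10 FPKM over all libraries, was called in none of the 8 comparisons in limma. Of the 6 genes tested, 1 was called at 12 h after each dose (Gjb5), beside 9.94% of all genes after 5 Gy and 8.54% after 20 Gy in either direction. At 24 h 0 were called by limma after either dose, where 41.3% and 40.3% of all genes were called, and 1 after 5 Gy and 2 after 20 Gy had an unadjusted p under 0.05. Between the times, 2 were called after 5 Gy (Gjb5 and Gjb6) and 1 after 20 Gy (Gjb5), all lower, beside 19.3% and 22.1% of all genes called lower. Between the doses 0 were called, beside 0.123% of all genes at 12 h and 2.42% at 24 h. In limma, 1 had an unadjusted p under 0.05 at 12 h and 0 at 24 h. The share of all genes at this unadjusted limit is not given, and nothing is read from the unadjusted counts of these 6 genes.

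**Figure D5:**
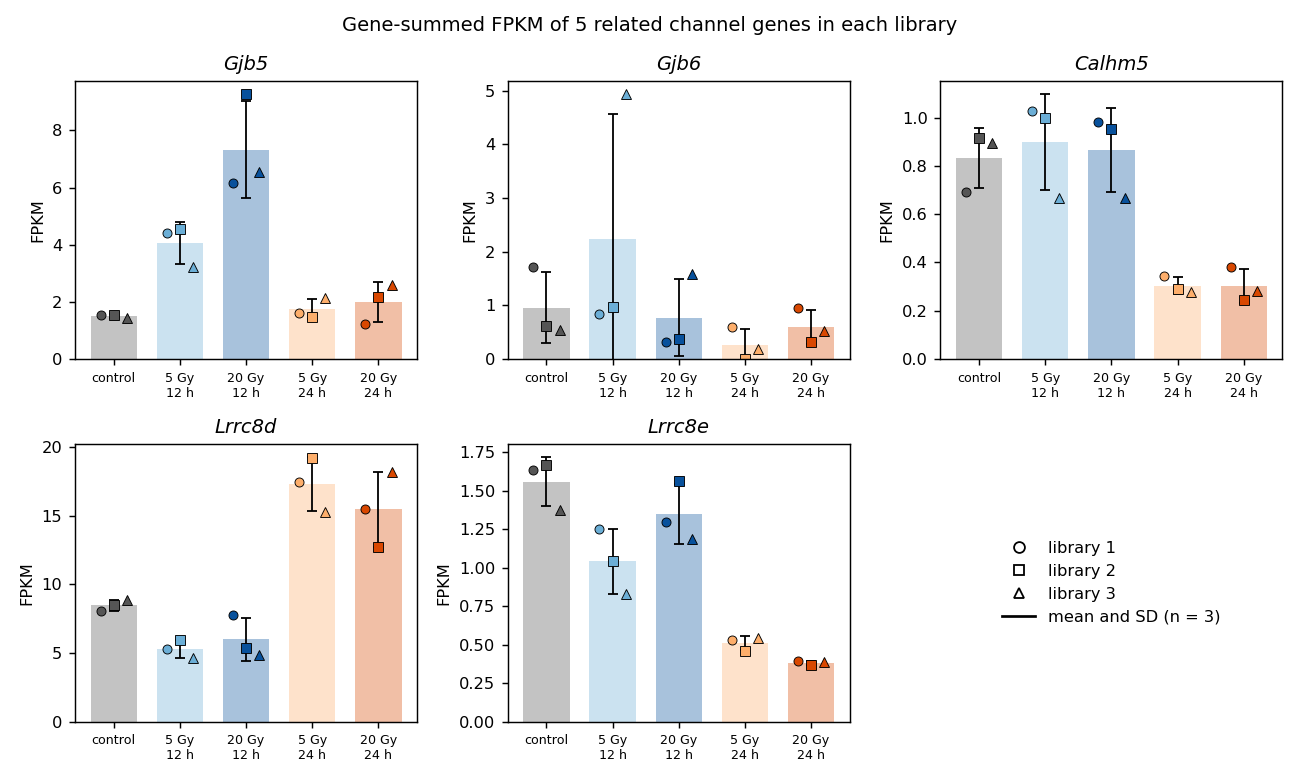
Gene-summed FPKM on the vertical axis of Gjb5, Gjb6, Calhm5, Lrrc8d and Lrrc8e in the 5 groups, with 1 marker per library, bars at the mean and error bars of 1 SD (n = 3), cut at 0. Gjb5 is highest at 12 h after 20 Gy, Lrrc8d is highest at 24 h, and Calhm5 and Lrrc8e are lowest at 24 h.

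The LRRC8 genes code for the subunits of the volume-regulated anion channel, a relative of pannexins in its fold, and all 5 were tested. At 24 h, 2 rose (Lrrc8c and Lrrc8d) and 1 fell (Lrrc8e) after each dose, so that 3 of 5 were called where 41.3% of all genes were called in either direction after 5 Gy and 40.3% after 20 Gy. Lrrc8d was 8.07 to 8.85 FPKM in the controls, 4.66 to 7.80 FPKM at 12 h and 12.7 to 19.2 FPKM at 24 h, with log2 changes from the control of 0.94 ± 0.16 (limma adjusted p = 0.000209) after 5 Gy and 0.78 ± 0.16 (limma adjusted p = 0.000907) after 20 Gy at 24 h. Lrrc8c rose by 0.81 ± 0.11 (limma adjusted p = 4.74e-05) and 0.93 ± 0.11 (limma adjusted p = 1.49e-05).

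Lrrc8e, the least abundant of these 3, was 1.38 to 1.67 FPKM in the controls and 0.367 to 0.546 FPKM at 24 h. It changed by -0.76 ± 0.10 (limma adjusted p = 3.1e-05) after 5 Gy and -0.89 ± 0.10 (limma adjusted p = 8.88e-06) after 20 Gy. At 12 h after 5 Gy, 2 of the 5 LRRC8 genes fell, where 4.96% of all genes were called lower. They were Lrrc8d, with a log2 change of -0.60 ± 0.16 (limma adjusted p = 0.0191), and Lrrc8b, which was chosen after its values were seen, with -0.61 (limma adjusted p = 0.000657). At 12 h after 20 Gy 0 were called, beside 8.54% of all genes in either direction, and Lrrc8d had -0.46 ± 0.16 (limma adjusted p = 0.0666). The median log2 difference of the 5 genes was 0.25 and 0.16 at 24 h after 5 Gy and 20 Gy, beside -0.05 and -0.14 over all genes.

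A list of 19 symbols for partners of connexins, with roles that include anchoring, phosphorylation and traffic, had 18 genes in the table and 17 tested. The symbol without an entry is an older name of a gene that the list also holds. At 12 h, 1 fell after 5 Gy (Cav1, by 0.63 ± 0.11 on the log2 scale, limma adjusted p = 0.00153) and 0 were called after 20 Gy, where Cav1 had -0.48 ± 0.11 (limma adjusted p = 0.00902) and was under 1.5-fold. Of all genes tested, 9.94% were called in either direction at 12 h after 5 Gy and 8.54% after 20 Gy. At 24 h, 5 were called higher and 2 lower after 5 Gy, and 5 higher and 3 lower after 20 Gy. These 7 and 8 of 17 stood beside 41.3% and 40.3% of all genes called in either direction, which is near the background, and nothing particular to the list is read from them. Those higher were Akap9, Cnst, Smurf2, Prkca and Tjp1 after both doses, and those lower were Cav1 and Ctnnb1 after both and Dbn1 after 20 Gy. Akap9, Tjp1 and Cav1 follow the rule for named genes, which itself ranks by calls, and the others were named after their values were seen. Cav1, the main protein of caveolae, was 127 to 158 FPKM in the controls and fell to 49.3 to 53.9 FPKM at 24 h after 5 Gy and 61.4 to 74.7 FPKM after 20 Gy. Its log2 change was -1.44 ± 0.11 (limma adjusted p = 2.18e-07) and -1.03 ± 0.11 (limma adjusted p = 4.13e-06). Akap9, a scaffold of protein kinase A at the Golgi, rose from 7.28 to 7.38 FPKM in the controls to 15.03 to 20.1 FPKM at 24 h, by 1.10 ± 0.10 (limma adjusted p = 1.82e-06) and 1.14 ± 0.10 (limma adjusted p = 1.4e-06).

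Tjp1, which codes for a scaffold of tight and gap junctions, was called higher at 24 h, but the call turned on how its transcripts were named. Its sum held 2 annotated transcripts, with a mean of 0.032 FPKM in the controls and 17.9 and 21.7 FPKM at 24 h after 5 Gy and 20 Gy. A further 4 unnamed transcripts of a locus that holds 2 gene names were left unassigned. They had a mean of 24.4 ± 1.77 FPKM (SD, n = 3) in the controls and 26.8 ± 5.54 and 24.8 ± 5.45 FPKM at 24 h. For this reason no change in Tjp1 is read from its sum.

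Of 18 genes of ATP release and purine signalling, all in the table, 8 were tested. Nt5e, the ectoenzyme that makes adenosine from AMP, was 54.0 to 78.0 FPKM in the controls. It fell at 12 h by 0.67 ± 0.16 on the log2 scale (limma adjusted p = 0.00944) after 5 Gy and by 0.85 ± 0.16 (limma adjusted p = 0.00277) after 20 Gy.

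Adora2b, an adenosine receptor, rose between 12 h and 24 h, by 0.77 ± 0.17 (limma adjusted p = 0.00227) after 5 Gy and 0.66 ± 0.17 (limma adjusted p = 0.0066) after 20 Gy. Its 24 h libraries overlapped the controls. At 24 h after 20 Gy, Nt5e fell by 0.60 ± 0.16 (limma adjusted p = 0.00495), and after 5 Gy it had -0.30 ± 0.16 (limma adjusted p = 0.111). The median log2 difference of the 8 genes at 24 h was -0.33 and -0.40, beside -0.05 and -0.14 over all genes.

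The genes whose profile over the 15 libraries was nearest to each of the 5 were found by the root mean square difference of log2(FPKM + 1), centred on its mean, among genes with a mean of at least 5 FPKM. For Panx1 they were Vps18 (0.12), Sipa1l3 (0.13) and Setd7 (0.13), and for Calhm2 they were Map3k4 (0.10), Kdm5b (0.10) and Mtm1 (0.10). For Gja1 they were Wdr86 (0.18), Zfp358 (0.18) and Cldn11 (0.19), the last of which codes for a claudin of myelin and the arachnoid. For Gjc1 they were Actn1 (0.21), Paqr4 (0.21) and Pola1 (0.24). Nearest to Gjb2 were an unnamed locus (0.47), Prodh1 (0.54) and Adra2a (0.57). For comparison, the same measure of each gene against its own mean was 0.58 for Panx1, 0.65 for Calhm2, 0.52 for Gja1, 0.53 for Gjc1 and 1.09 for Gjb2. The larger distances of Gjb2 thus go with its larger spread. Its correlation with its nearest gene was 0.914, beside 0.921 for Gjc1.

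The depth behind these values was estimated from FPKM, transcript length and library size, in reads of 150 bases. It came to 39388 to 160502 reads per library for Gja1 and 2008 to 6772 for Calhm2. Panx1 had 446 to 1819, Gjc1 150 to 734 and Gjb2 68 to 2808 reads per library. Gjb2 and Gjc1 were thus measured on the fewest reads, and their single values carry the largest counting error.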

How the data were processed

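Poly-A RNA libraries of 15 cultures were analysed, 3 in each of 5 groups taken from the labels. The authors mapped 150-base reads with HISAT2 to Rnor_6.0, used StringTie to assemble transcripts, and deposited FPKM per transcript. Counts were not used, so no count model was fitted. FPKM was summed per gene, which left 4738 of 85322 transcripts, at loci with several names, unassigned.

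Gene sums with a mean of at least 0.5 FPKM (17895 genes) were tested as log2(FPKM + 1) with limma 3.58.1 in R 4.3.3, with 1 mean per group, a variance prior with a trend and 10 residual degrees of freedom. A pseudocount of 1 understates changes of low genes. Tests were two-sided. The script was tested on simulated data. The genes, lists and tests were chosen with earlier results of these data known.

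Genes named are the 5 described, the other family genes with at least 0.5 FPKM, at most 3 genes per related list, called in the most comparisons, and the 3 nearest profiles per gene. Further list genes behind a count of calls were named after their values were seen. A few of them are left out of the text and not reported here. Gene positions are those of Rnor_6.0, and start regions those of GRCr8. Read estimates carry counting error only. Same-numbered libraries deviated together in 4 of 30 pairs (r over 0.1), so the numbers were not taken as pairing. Different-numbered libraries did so in 9 of 60. Within a time, however, same-numbered libraries of the 2 doses had r of 0.161, 0.045 and 0.232 at 12 h. At 24 h these values were 0.155, 0.064 and 0.083. The dose comparisons leave this out. The alternative with a replicate block fits effects of the library number that are shared by all 5 groups, so it does not cover pairing within a time. Alternatives covered the pseudocount, the filter, normalization, the libraries in the fit, the prior, a replicate block, transcript choice, the fold threshold and leaving out each library.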

Additional observations from a re-analysis of the deposited data

How the results depend on the processing

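The counts of called genes among the 5 described and the 6 other family genes depended on the processing as follows. With the transcript of highest mean FPKM, 2 of the 5 were called in each 12 h group, 2 in the 5 Gy and 1 in the 20 Gy group at 24 h, while 0 of the other genes were called at 12 h after 5 Gy and 1 between the times after 5 Gy. With annotated transcripts alone, 1 of the 5 was called at 24 h and between the times after 20 Gy, and 0 others at 12 h after 5 Gy. The Panx1 difference between the times was -0.40 with the highest transcript after 5 Gy and -0.27 with annotated transcripts after 20 Gy, against 1.09 and 0.80 with sums. These alternatives leave out transcripts, which changes the Panx1 differences by construction. They also change the set of genes tested, and the cause of the differing counts of calls was not tested. At a fold change of at least 2, the 5 gave 0 for 20 Gy at 12 h, 2 for 5 Gy at 24 h and 0 between the times after 20 Gy, and the others 0 at 12 h after 5 Gy and 1 between the times after 5 Gy.

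After rescaling to the same sum, 2 of the 5 were called for 20 Gy at 12 h, with 1 other gene in each 24 h group and 2 between the times after 20 Gy. With a pseudocount of 0.1 there was 1 other gene at 24 h after each dose and 3 between the times after 20 Gy. After 5 Gy, 1 other gene was called between the times with a mean of at least 1 FPKM, with quantile normalization and with the 2 groups alone. The cause was not tested. Leaving out each library in turn gave 0 to 1 of the 5 at 12 h after 20 Gy (Calhm2 instead of Gjc1 without the first exposed library), and 1 to 2 of the others between the times after 5 Gy and after 20 Gy. Without the third library of both 12 h groups, added after the values were seen, 0 of the 5 were called for 20 Gy at 12 h, with 1 other gene for 5 Gy at 24 h and 2 between the times after 20 Gy. With a replicate block the same 4 of the 5 were called at 24 h after 20 Gy, and no call changed in any comparison. This block is shared by all groups, so it cannot show what pairing within a time would change. Depth limits Gjb2 most, at 68 reads in its lowest library.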
